A study of Mus musculus with 6 samples.

Results

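The mitosis and spindle genes followed here are 46 genes listed by symbol that act between the end of DNA synthesis and the separation of daughter cells. All 46 were found in the deposited table of 54532 genes, each under 1 Ensembl identifier, and all 46 were among the 16075 genes with enough reads to be tested. They were read in CD4+ T cells from the spleen of C57BL/6 mice in the acute phase of EAE (experimental autoimmune encephalomyelitis), a disease in which immune cells are made to attack brain and spinal cord. The Ogt-KD group, 3 libraries, had the genotype Ogtfl/wt CD4-Cre, that is 1 floxed and 1 wild-type allele of Ogt and a Cre recombinase that Cd4 promoter sequence drives in the T cell lineage. The control group, 3 libraries, was wild type, with no floxed allele and no Cre named, and both groups had EAE. The labels give no age. Because Cre and the floxed allele are present in Ogt-KD mice only, their own effects and that of Ogt dosage cannot be told apart.

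Dividing cells switch on a shared set of genes late in each cycle. Cyclin-dependent kinase 1 with cyclins A and B drives entry into mitosis, condensin compacts the chromosomes, kinesin motors and microtubule crosslinkers build the spindle, and the kinetochore ties chromosomes to it. The spindle checkpoint holds back the anaphase-promoting complex until every chromosome is attached, and the midzone and the contractile ring then divide the cell. Resting T cells express these genes at low levels, and T cells that divide after antigen recognition raise them together. In bulk RNA, more cells in cycle and more mitotic RNA per cell cannot be told apart.

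The libraries held from 18127031 to 25683453 counts, and the 46 genes took 0.275%, 0.262% and 0.198% of them in Ogt-KD replicates 1, 2 and 3, against 0.125%, 0.166% and 0.164% in control replicates 1, 2 and 3. Levels below are CPM, that is counts scaled to a common library total, after TMM scaling, and error is the SD over n = 3 libraries. Ogt itself stood at 661.9, 598.8 and 458.6 CPM in Ogt-KD libraries and at 599.2, 627.9 and 562.4 CPM in controls (log2 fold change -0.06, SE 0.15, adjusted p = 0.981), so the counts do not separate the labels. These counts cover the whole gene and do not measure a deletion. Libraries stood apart by number as well as by group. Ogt-KD replicate 3 and control replicate 3 were closer to each other than to any library of their own groups, with a chi-squared per degree of freedom of 18.8 between them, against 79.7 and 96.2 between Ogt-KD replicate 3 and the other Ogt-KD libraries. They also held 3998 and 4274 summed CPM of 8 macrophage markers, against 680.4 and 809.0 in Ogt-KD replicates 1 and 2 and 1689 and 1820 in control replicates 1 and 2. For the 46 genes as a list, the median and the count at an unadjusted p under 0.05 are given with and without these libraries. Values printed for single genes, roles and other lists rest on all libraries.

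Mitosis and spindle genes were higher in the Ogt-KD libraries as a block. The log2 fold change, Ogt-KD relative to control, was above 0 for all 46, where 49.0% of all genes tested did. Their median log2 fold change was 0.79, or 1.73-fold, against -0.005 over all genes tested, with a lowest value of 0.15 for Smc4 and a highest of 1.08 for Aspm. The middle of the list was narrow, with quartiles of 0.70 and 0.83, and 37 genes lay above 1.5-fold while 3 lay above 2-fold. By edgeR's quasi-likelihood test 0 of 46 passed an adjusted p of 0.05 over all genes, where 0.00622% of genes passed in this direction. Adjusted p values of the members ran from 0.48 to 0.879. At an unadjusted p under 0.05, 43 of 46 lay higher and 0 lower, where 5.04% of all genes lay higher.

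**Figure D1:**
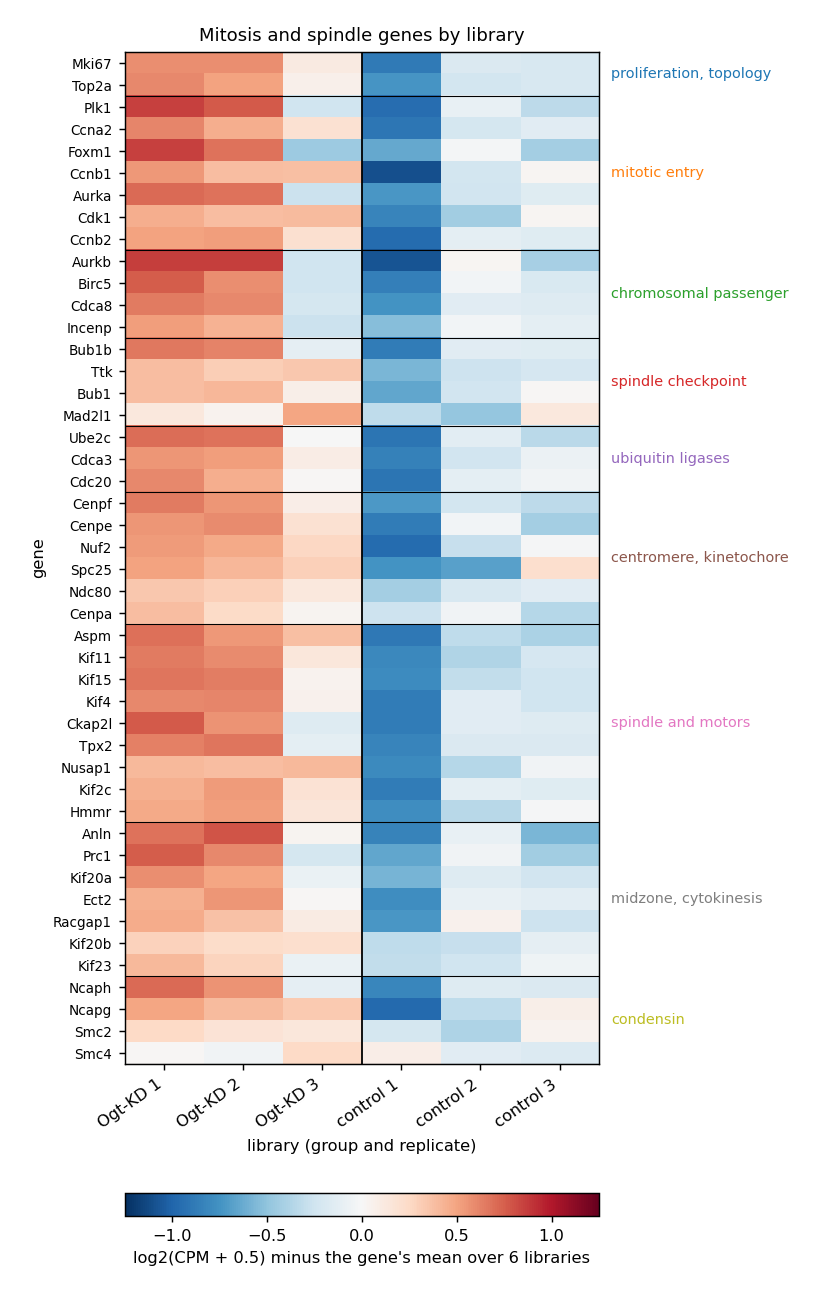
Heat map of the 46 genes (rows, grouped by role) in the 6 libraries (columns, Ogt-KD left of control). Colour is log2(CPM + 0.5) minus the gene's own mean over the libraries. Ogt-KD replicates 1 and 2 are high in nearly every row, control replicate 1 is the lowest library for 42 genes, and Ogt-KD replicate 3 lies between.

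The level was uneven across libraries within each group. Summed over the 46 genes, Ogt-KD replicates 1, 2 and 3 held 2633, 2516 and 2034 CPM, against 1302, 1668 and 1675 CPM in control replicates 1, 2 and 3. No Ogt-KD sum fell within the control range. The highest library was Ogt-KD replicate 1 for 33 genes, Ogt-KD replicate 2 for 10 and Ogt-KD replicate 3 for 3. The lowest was control replicate 1 for 42 genes. Groups did not overlap for 34 of 46 genes, where Ogt-KD values all lay above control values for 7.43% of genes tested. Ogt-KD replicates 1 and 2 alone lay above every control for 44 genes, against 20.0% of all genes tested. Without control replicate 1 the median log2 fold change was 0.60 and 26 genes had an unadjusted p under 0.05, where 2.97% of genes lay higher. Leaving out Ogt-KD replicate 1 gave a median of 0.70 and 22 genes (background 3.11%), and leaving out Ogt-KD replicate 2 gave 0.71 and 27 genes (background 2.64%). With Ogt-KD replicate 3 left out the median was 0.91 with 44 genes (background 9.59%). In addition, 38 genes lay past that p without control replicate 2 (median 0.88, background 4.68%) and 38 without control replicate 3 (median 0.89, background 3.28%). With both replicate 3 libraries left out the median was 1.07 with 44 genes (background 8.87%).

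DESeq2 called 5 members higher, Kif11, Kif15, Nusap1, Cenpf and Aspm, where 0.477% of its tested genes were called higher. The authors' deposited table gave 5 members an adjusted p under 0.05 in this direction, against 0.311% of genes with a value there, and their names are the same 5. The authors' deposited adjusted p was 0.000616 for Aspm, 0.0101 for Kif11 and 0.0256 for Cenpf, and 0.0315 for Kif15 and 0.0473 for Nusap1. These calls and the DESeq2 calls come from the same 6 libraries. At an unadjusted p under 0.05 DESeq2 placed 45 members higher (background 4.82%). When replicate number entered the edgeR fit as a block, 0 members were called, against 0.199% of all genes called higher, and 43 lay higher at an unadjusted p under 0.05 (background 7.55%).

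**Figure D2:**
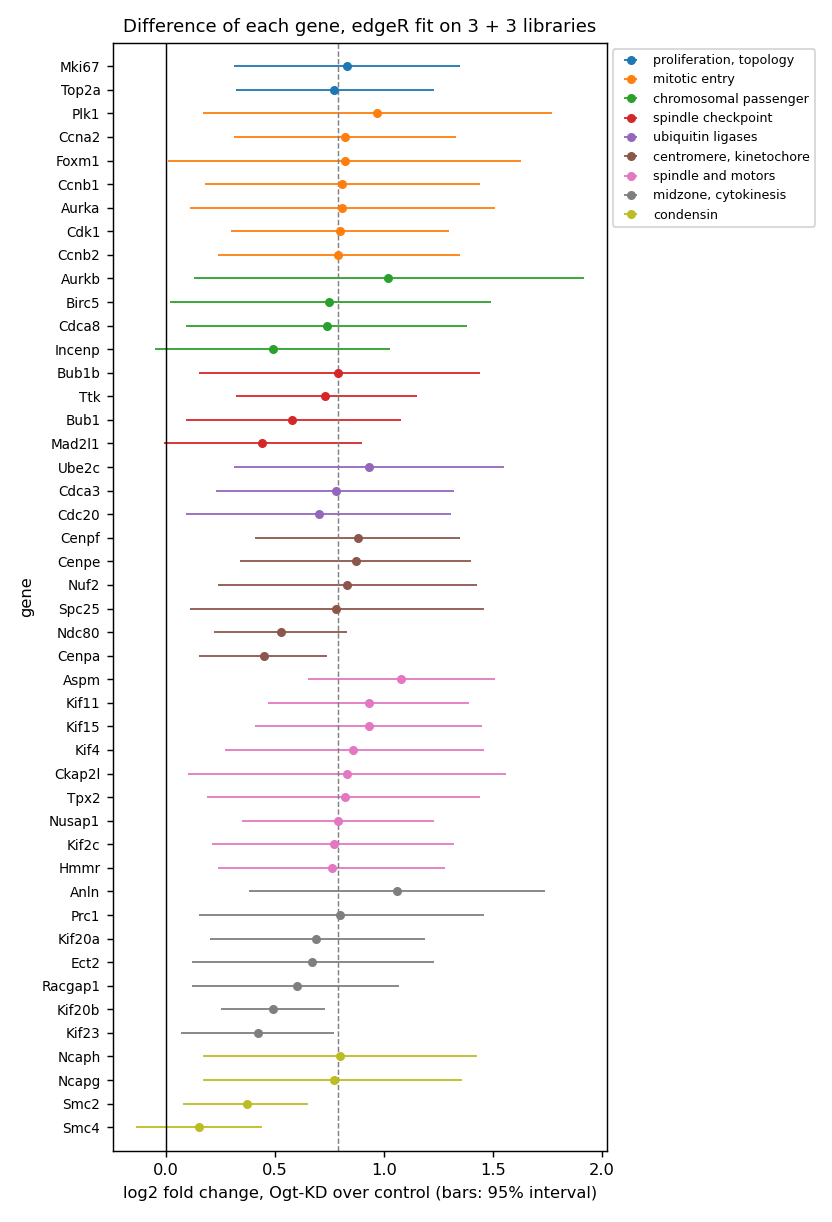
Log2 fold change, Ogt-KD relative to control, for each gene (rows, coloured by role) with its 95% interval from the edgeR fit on 3 + 3 libraries; the dashed line is the median of 0.79. All 46 points lie right of 0, and the intervals of Incenp, Mad2l1 and Smc4 include 0.

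Promoters are shown because the genes move together and because many late cell cycle genes are known to carry a cell cycle homology region (CHR) near the start, bound by the DREAM and MuvB complexes, with CCAAT boxes upstream that bind NF-Y. Promoter sequences were those of RefSeq on GRCm38.p6, found for 39 of the 46 genes. In the 250 bases before the start, the CHR letters TTTGAA occurred on either strand in 14 of 39 members (35.9%), against 18.3% of 27025 genes. The variant TTCGAA occurred in 2 members (5.13%, against 1.55% of genes). The CCAAT box, as CCAAT on either strand, occurred in 29 members (74.4%, against 37.5%), and TTTGAA together with CCAAT in 1 window in 12 members (30.8%, against 6.45%). The TTTGAA letters can share at most 1 end base with CCAAT, and the motifs were counted separately. The matches of 9 members began within 40 bases of the start (23.1%, against 2.41% of all genes), a span chosen after the positions were seen. The log2 fold changes of members with TTTGAA had a median of 0.80 (14 genes), and those of members without it 0.78 (25 genes).

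The 120 bases before the start are printed for 4 members with TTTGAA close to the start, each 5′ to 3′ on the gene's own strand. Capitals mark TTTGAA and CCAAT, or TTCAAA and ATTGG where the motif lies on the other strand.
Cdk1 (chr10:69352913-69353032, minus strand): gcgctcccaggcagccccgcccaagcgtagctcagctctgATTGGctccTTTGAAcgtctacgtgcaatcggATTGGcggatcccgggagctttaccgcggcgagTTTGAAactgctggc
Cdc20 (chr4:118437344-118437463, minus strand): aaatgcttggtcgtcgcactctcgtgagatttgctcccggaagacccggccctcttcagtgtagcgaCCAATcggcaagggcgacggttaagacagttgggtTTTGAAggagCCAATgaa
Ube2c (chr2:164769809-164769928, plus strand): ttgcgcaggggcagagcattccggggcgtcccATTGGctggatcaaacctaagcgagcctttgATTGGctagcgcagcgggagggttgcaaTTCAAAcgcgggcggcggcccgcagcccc
Top2a (chr11:99024190-99024309, minus strand): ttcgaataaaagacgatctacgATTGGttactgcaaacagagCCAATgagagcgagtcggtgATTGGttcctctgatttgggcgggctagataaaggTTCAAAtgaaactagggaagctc
The nearest TTTGAA match begins 15 bases before the start in Cdk1, 18 in Cdc20, 29 in Ube2c and 23 in Top2a. CCAAT occurs 3 times in the printed Top2a stretch and 2 times in each of the other stretches. A match is a description of letters and not of a bound site.

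**Figure D3:**
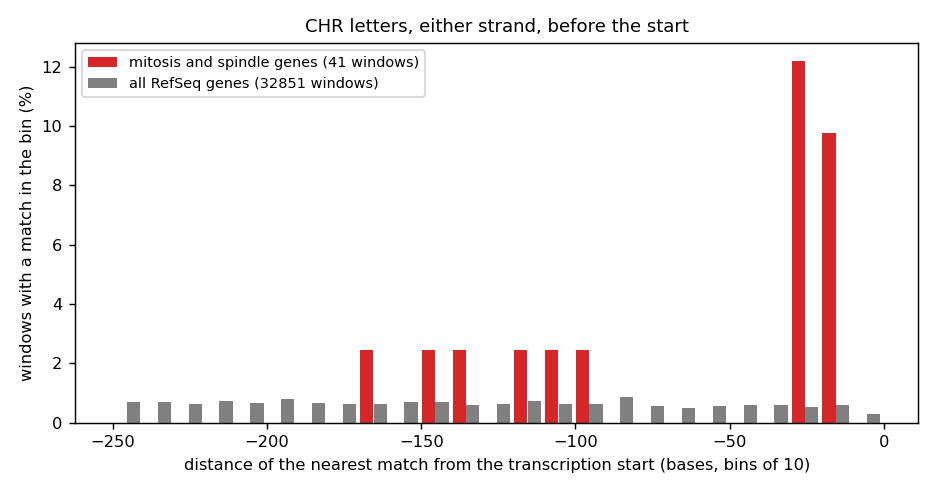
Share of promoter windows (vertical axis, %) whose nearest match to the CHR letters begins in each bin of 10 bases before the transcription start (horizontal axis), for the 41 windows of the mitosis and spindle genes (red) and 32851 windows of all RefSeq genes (grey). Member matches gather between 11 and 30 bases before the start, at 9.76% and 12.2% of windows, where the share of all windows is 0.606% and 0.548%.

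Mki67 and Top2a mark cycling cells most directly. Mki67 (7:135689784-135716361 on GRCm38), which encodes the Ki-67 protein that coats mitotic chromosomes, stood at 344.5, 344.1 and 248.4 CPM in Ogt-KD replicates 1, 2 and 3, against 124.3, 202.5 and 199.7 CPM in control replicates 1, 2 and 3. The groups did not overlap, and Ogt-KD replicate 3 was nearest to the controls. Its log2 fold change was 0.83 (SE 0.22, adjusted p = 0.526). Top2a (11:98992943-99024189), the topoisomerase that untangles sister chromatids, had 253.2, 236.4 and 174.1 CPM in Ogt-KD libraries and 100, 142.6 and 145.3 CPM in controls. Its groups did not overlap either, with control replicate 1 lowest and a log2 fold change of 0.77 (SE 0.19).

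The 7 genes of mitotic entry all lay above 0, with log2 fold changes from 0.79 to 0.97. Cdk1, the kinase that drives mitosis, had 30.4, 28.8 and 29.1 CPM in Ogt-KD libraries, against 12.2, 16.1 and 22.4 CPM in controls (log2 fold change 0.80, SE 0.21, adjusted p = 0.526). Its Ogt-KD values were nearly level while the controls spread. Ccnb1, a cyclin B that activates Cdk1, had 38.7, 34.8 and 34.4 CPM in Ogt-KD libraries and 12.1, 22.5 and 27.0 CPM in controls. Ccnb2, the other cyclin B, had 40.6, 41.0 and 32.8 CPM in Ogt-KD libraries and 14.3, 26.1 and 25.6 CPM in controls. Ccna2, the cyclin of S phase and early mitosis, had 55.1, 49.4 and 41.2 CPM in Ogt-KD libraries and 19.0, 30.8 and 32.6 CPM in controls. None of these 4 genes overlapped between groups, where Ogt-KD values all lay above control values for 7.43% of genes tested. Ccnb1 and Ccnb2 each have a similar pseudogene in the table, and reads shared with it could be split between the copies.

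The 3 regulators of entry behaved differently from the cyclins in Ogt-KD replicate 3. Foxm1, the transcription factor of late cell cycle genes, had 44.8, 39.6 and 17.8 CPM in Ogt-KD libraries, against 15.5, 24.1 and 18.1 CPM in controls (log2 fold change 0.82, SE 0.34, adjusted p = 0.656). Plk1, the polo-like kinase of mitotic entry and exit, had 40.4, 38.1 and 18.6 CPM in Ogt-KD libraries and 11.2, 20.7 and 17.5 CPM in controls. Aurka, the Aurora kinase of spindle poles, had 26.0, 25.5 and 13.0 CPM in Ogt-KD libraries and 9.32, 13.3 and 14.1 CPM in controls. For all 3 genes Ogt-KD replicates 1 and 2 lay above every control and Ogt-KD replicate 3 lay within the control range.

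The chromosomal passenger complex, which corrects faulty attachments and starts cytokinesis, had the same split in all 4 subunits. Aurkb, its kinase, had 39.3, 39.3 and 17.9 CPM in Ogt-KD libraries, against 9.82, 21.7 and 15.9 CPM in controls (log2 fold change 1.02, SE 0.38, adjusted p = 0.624). Birc5, which encodes survivin, had 42.2, 37.3 and 20.8 CPM in Ogt-KD libraries and 13.5, 24.2 and 21.7 CPM in controls. Cdca8, which encodes borealin, had 32.9, 31.8 and 17.8 CPM in Ogt-KD libraries and 12.2, 18.8 and 18.5 CPM in controls. Ogt-KD replicate 3 lay inside the control range in each of them. Incenp, the scaffold of the complex, had 98.5, 92.3 and 56.7 CPM in Ogt-KD libraries and 47.0, 66.5 and 62.9 CPM in controls. Its log2 fold change of 0.49 (SE 0.23, unadjusted p = 0.069) was the lowest of the 4. Summed CPM of the complex was 213.0, 200.7 and 113.2 in Ogt-KD libraries, against 82.5, 131.1 and 119.0 in controls.

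Over 4 spindle checkpoint genes the log2 fold changes had a median of 0.66. Bub1b, which encodes BubR1, an inhibitor of the anaphase-promoting complex, had 49.3, 47.8 and 28.7 CPM in Ogt-KD libraries and 16.7, 28.1 and 27.8 CPM in controls (log2 fold change 0.79, SE 0.27). Bub1, the kinase that recruits the checkpoint to kinetochores, had 17.0, 17.4 and 13.6 CPM in Ogt-KD libraries and 8.04, 10.9 and 13.1 CPM in controls. Ttk, the Mps1 kinase that starts checkpoint signalling, had 9.01, 8.52 and 8.71 CPM in Ogt-KD libraries and 4.38, 5.6 and 5.80 CPM in controls. All 3 separated the groups, against 7.43% of genes tested with Ogt-KD higher. Bub1 and Bub1b did so by a narrow margin at Ogt-KD replicate 3. Mad2l1, which encodes the Mad2 inhibitor of Cdc20, had 42.1, 39.7 and 54.5 CPM in Ogt-KD libraries and 30.7, 27.4 and 42.1 CPM in controls. Here replicate 3 was the highest library of each group, the groups overlapped, and the log2 fold change was 0.44 (SE 0.19, unadjusted p = 0.0542). Between libraries of the same number the Ogt-KD value was the higher in all 3 cases, and with the replicate block edgeR gave a log2 fold change of 0.45 for Mad2l1 (unadjusted p = 0.0015, adjusted p = 0.0923).

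Genes of ubiquitin ligation in mitosis separated the groups in all 3 cases, against 7.43% of genes tested with Ogt-KD higher. Cdc20, the activator of the anaphase-promoting complex, had 48.6, 44.0 and 32.3 CPM in Ogt-KD libraries, against 16.7, 29.3 and 30.9 CPM in controls (log2 fold change 0.70, SE 0.26, adjusted p = 0.624). Ube2c, the ubiquitin-conjugating enzyme of that complex, had 47.4, 46.6 and 28.9 CPM in Ogt-KD libraries and 15.2, 26.5 and 22.9 CPM in controls, a log2 fold change of 0.93 (SE 0.26). Cdca3, described as a trigger of mitotic entry, had a log2 fold change of 0.78 (SE 0.23).

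Centromere and kinetochore genes did not overlap between groups in any of 6 cases, where 7.43% of genes tested separated with Ogt-KD higher. Cenpf, a large kinetochore protein, had 36.3, 33.8 and 24.3 CPM in Ogt-KD libraries and 13.7, 19.4 and 18.1 CPM in controls (log2 fold change 0.88, SE 0.20, adjusted p = 0.501). Cenpe, the kinesin that moves chromosomes to the spindle equator, had 42.5, 43.6 and 33.0 CPM in Ogt-KD libraries and 15.5, 28.1 and 21.4 CPM in controls. Cenpa, the histone variant that marks centromeres, had 102.0, 92.2 and 79.7 CPM in Ogt-KD libraries and 64.8, 75.5 and 60.7 CPM in controls, the smallest log2 fold change of the role at 0.45 (SE 0.13). The outer kinetochore subunits that bind microtubules differed in size. Ndc80 had 23.1, 22.5 and 19.9 CPM in Ogt-KD libraries and 13.4, 15.7 and 16.4 CPM in controls, a log2 fold change of 0.53 (SE 0.13). Its partners Nuf2 and Spc25 had 0.83 (SE 0.25) and 0.78 (SE 0.29), and the 95% intervals of the 3 subunits overlap. In Spc25 the groups came close, at 12.6 CPM in Ogt-KD replicate 3 and 11.9 CPM in control replicate 3.

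Spindle assembly genes and motors had the highest role median, 0.83 over 9 genes. Of the 9, 8 separated the groups, against 7.43% of genes tested with Ogt-KD higher. Aspm (1:139454772-139494091), which acts at spindle poles, had 34.9, 31.4 and 27.9 CPM in Ogt-KD libraries, against 11.3, 17.1 and 16.2 CPM in controls. Every Ogt-KD value lay above every control, and the log2 fold change of 1.08 (SE 0.18, 95% interval 0.65 to 1.51) had the smallest unadjusted p of the list, 0.000531, with an adjusted p of 0.48. Kif11 (19:37376403-37421859), the kinesin that pushes spindle poles apart, had 83.4, 80.1 and 58.4 CPM in Ogt-KD libraries and 30.1, 40.6 and 45.6 CPM in controls (log2 fold change 0.93, SE 0.19, adjusted p = 0.483). Kif15, a kinesin that can share the work of Kif11, had the same log2 fold change of 0.93 (SE 0.22). Tpx2, the activator of Aurora A, had 47.3, 48.7 and 27.9 CPM in Ogt-KD libraries and 16.9, 26.8 and 26.7 CPM in controls. Ogt-KD replicate 3 thus passed control replicate 2 by a small step. Nusap1, a microtubule crosslinker, was level among Ogt-KD libraries at 32.3, 31.9 and 32.3 CPM, against 13.7, 18.8 and 23.4 CPM in controls. The chromokinesin gene Kif4 had a log2 fold change of 0.86, the microtubule depolymerase gene Kif2c 0.77 and the spindle protein gene Hmmr 0.76. Ckap2l, another spindle protein gene, had 0.83 (SE 0.31) and was the 1 gene of the role whose groups overlapped, with 9.95 CPM in Ogt-KD replicate 3 and 10.1 CPM in control replicate 2.

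**Figure D4:**
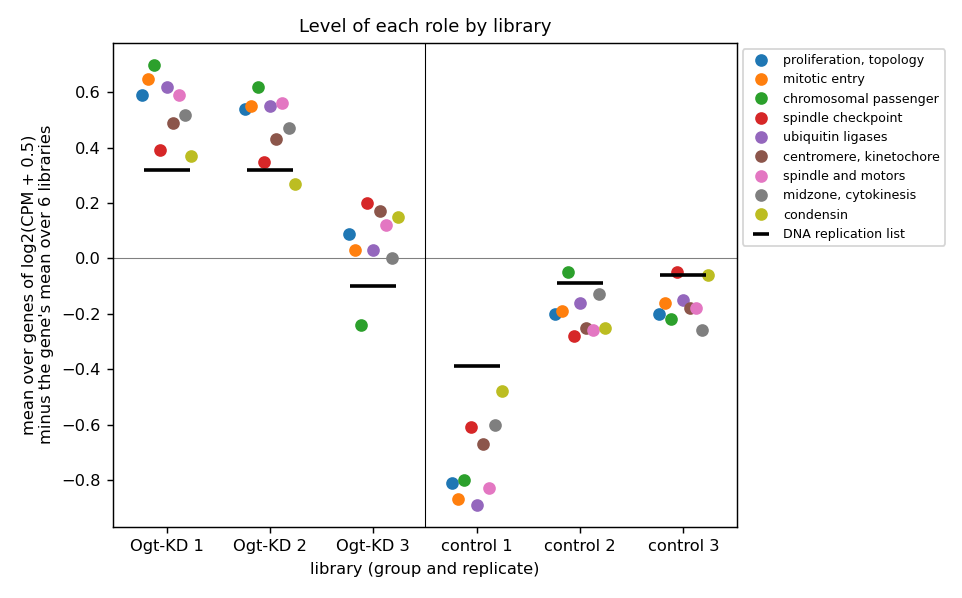
Level of each of the 9 roles (coloured points) and of a list of 45 DNA replication genes (black bars) in each library, Ogt-KD left of control. A point is the mean over the role's genes of log2(CPM + 0.5) minus the gene's mean over 6 libraries. In Ogt-KD replicate 2 the roles lie between 0.27 and 0.62, and in Ogt-KD replicate 3 the chromosomal passenger complex lies lowest at -0.24 and the spindle checkpoint highest at 0.20.

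Midzone and cytokinesis genes ranged from 0.42 to 1.06 over 7 genes. Anln, a scaffold of the contractile ring, was highest with 12.9, 13.9 and 8.07 CPM in Ogt-KD libraries, against 4.2, 7.33 and 5.13 CPM in controls (log2 fold change 1.06, SE 0.29, adjusted p = 0.53). Kif23, a motor of the centralspindlin complex, was lowest with 44.6, 40.9 and 31.7 CPM in Ogt-KD libraries and 27.1, 28.2 and 32.2 CPM in controls, a log2 fold change of 0.42 (SE 0.15). Its groups overlapped at replicate 3. Racgap1, the other centralspindlin subunit, had 88.0, 82.3 and 68.7 CPM in Ogt-KD libraries and 38.4, 66.4 and 53.2 CPM in controls. Ect2, the exchange factor that activates RhoA at the cleavage site, had 20.5, 22.2 and 15.1 CPM in Ogt-KD libraries and 8.54, 14.0 and 13.6 CPM in controls. Both separated the groups, as 7.43% of genes tested did with Ogt-KD higher. Racgap1 and Ect2 had log2 fold changes of 0.60 (SE 0.20) and 0.67 (SE 0.24). Kif20b, a midzone kinesin, had little spread within groups, with 34.1, 32.7 and 32.4 CPM in Ogt-KD libraries and 22.2, 22.7 and 25.7 CPM in controls (log2 fold change 0.49, SE 0.10, adjusted p = 0.483). Kif20a, which carries the passenger complex to the midzone, had 0.69 (SE 0.21). Prc1, the bundler of antiparallel microtubules, had 0.80 (SE 0.28), with Ogt-KD replicate 3 at 21.3 CPM inside the control range of 15.7 to 24.0 CPM.

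The 4 condensin subunits had log2 fold changes from 0.15 to 0.80, and their 95% intervals overlap. Ncaph, the subunit that bridges the ring, had 37.7, 34.1 and 21.1 CPM in Ogt-KD libraries, against 12.8, 20.4 and 20.2 CPM in controls (log2 fold change 0.80, SE 0.27). Ncapg, a regulatory subunit of condensin I, had 29.0, 27.2 and 25.9 CPM in Ogt-KD libraries and 10.2, 16.4 and 21.6 CPM in controls (0.77, SE 0.25). The ATPase subunits, which condensin I and II share, had smaller values, and no test compared the subunits. Smc2 had 79.8, 75.2 and 73.6 CPM in Ogt-KD libraries and 57.3, 51.1 and 69.0 CPM in controls (0.37, SE 0.12). Smc4 had 344.8, 330.4 and 404.4 CPM in Ogt-KD libraries and 360.8, 309.1 and 303.2 CPM in controls (0.15, SE 0.12, adjusted p = 0.879, 95% interval -0.14 to 0.44). It was the member with the smallest difference and its groups overlapped.

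Levels per length, read from the authors' FPKM, set Smc4 apart. Smc4 averaged 68.5 ± 7.87 FPKM in Ogt-KD and 61.9 ± 5.58 FPKM in control libraries, the highest of the 46 genes in each group. Its partner Smc2 averaged 13.8 ± 0.529 FPKM in Ogt-KD and 10.7 ± 1.64 FPKM in control libraries. Ncaph and Ncapg lay between 3.66 and 8.65 FPKM in Ogt-KD libraries and between 1.43 and 4.76 FPKM in controls. Next after Smc4 by Ogt-KD level came Mki67 at 30.8 ± 5.30 FPKM, against 17.4 ± 4.50 FPKM in control libraries, then Incenp at 25.4 ± 6.82 FPKM, against 18.2 ± 3.34 FPKM in control libraries. Ccnb2, Top2a and Cdc20 followed between 22.1 and 24.7 FPKM in Ogt-KD libraries, and the ranges of mean ± SD of the genes from Mki67 to Cdc20 overlap in Ogt-KD libraries. The median member stood at 5.88 FPKM in Ogt-KD and 3.82 FPKM in control libraries, and Anln was lowest at 1.27 ± 0.334 FPKM in Ogt-KD and 0.611 ± 0.182 FPKM in control libraries.

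Ogt-KD replicate 3 divided the 46 genes. It lay above every control for 36 genes, where 31.8% of all genes tested did, and below both other Ogt-KD libraries for 41, against 44.6% of all genes tested. Its excess over the control mean was a median of 42.0% of the mean excess in Ogt-KD replicates 1 and 2, and under 50% for 28 genes. The share was highest for Smc4 at 605.4% and Mad2l1 at 281.2%, both with groups that overlapped, followed by Nusap1 at 101.3%, Ttk at 98.5% and Cdk1 at 95.6%. It was lowest for Foxm1, Incenp and Birc5, at -6.22%, -5.57% and 4.94%. Between libraries of the same number, Ogt-KD lay above control for 45 genes in replicate 1, 46 in replicate 2 and 39 in replicate 3, where 48.6%, 50.7% and 50.5% of all genes tested did. The median log2 ratio of the 46 genes was 1.41, 0.71 and 0.27 in these comparisons.

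The place of a gene in Ogt-KD replicate 3 moved with the base composition of its transcript. Across the 46 genes, the log2 difference of Ogt-KD replicate 3 from the mean of Ogt-KD replicates 1 and 2 had a Pearson correlation of -0.649 and a Spearman correlation of -0.627 with the GC content of the longest GENCODE M21 transcript. These are points of the same libraries and not independent. Over 16062 tested genes with a transcript the same correlations were -0.127 and -0.168. The contrasts of control replicates 1 and 3 had the relation in the same direction. Contrasts of this kind cancel over the libraries of a group, so that of control replicate 2, which was not computed, runs the other way. Across the 46 genes, control replicate 1 against control replicates 2 and 3 had -0.323 and -0.352. Control replicate 3 against control replicates 1 and 2 had -0.243 and -0.236. Over all tested genes with a transcript these were -0.104 and -0.153 for control replicate 1, and -0.0435 and -0.0684 for control replicate 3. Plk1, at 56.0% GC, and Foxm1, at 54.6%, had log2 differences of -1.05 and -1.22, lower in Ogt-KD replicate 3 than in the other Ogt-KD libraries. Mad2l1, at 40.1% GC, and Smc4, at 40.2%, had differences of 0.41 and 0.26. The 23 genes with lower and the 23 with higher GC content had median log2 fold changes between groups of 0.78 and 0.79. Across the 46 genes the log2 fold change between groups had a Pearson correlation of 0.274 and a Spearman correlation of 0.253 with GC content, against -0.00414 and 0.00534 over all genes with a transcript. The part of base composition in the position of Ogt-KD replicate 3 was not tested.

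**Figure D5:**
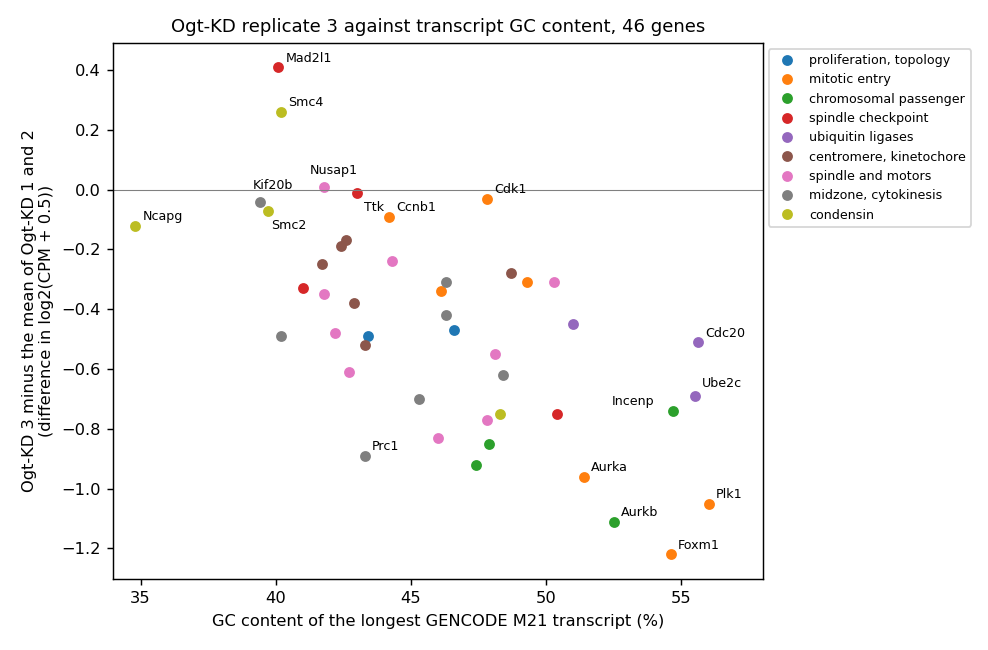
Difference in log2(CPM + 0.5) between Ogt-KD replicate 3 and the mean of Ogt-KD replicates 1 and 2 (vertical axis) against the GC content of the longest transcript (horizontal axis, %) for the 46 genes, coloured by role. The points slope downward with r = -0.649, from Mad2l1 at 0.41 to Foxm1 at -1.22.

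Other cells of the spleen could add RNA of dividing cells, and their markers were read beside the mitosis genes. Erythroid markers, of dividing precursors among others, summed to 57.8, 73.3 and 232.2 CPM in Ogt-KD libraries and 49.0, 31.8 and 68.1 CPM in controls over 13 genes. Of 12 tested 11 lay above 0, where 49.0% of all genes tested did. Their sum was highest in Ogt-KD replicate 3, though Ermap was highest in Ogt-KD replicate 2, at 3.85 CPM against 2.6 CPM in Ogt-KD replicate 3. Dendritic cell markers summed to 140.1, 200.7 and 66.4 CPM in Ogt-KD libraries and 67.2, 78.3 and 28.4 CPM in controls over 7 genes, all 7 above 0. Their sum was highest in Ogt-KD replicates 1 and 2 and lowest in control replicate 3. In Ogt-KD replicate 3 it lay below control replicates 1 and 2. Itgax alone held 85.5, 125.8 and 34.1 CPM in Ogt-KD libraries and 37.9, 44.3 and 19.0 CPM in controls. B cell markers summed to 135.8, 104.6 and 109.1 CPM in Ogt-KD libraries and 82.7, 118.2 and 86.1 CPM in controls, with 8 of 8 above 0. Germinal centre B cell markers summed to between 86.9 and 101.8 CPM in Ogt-KD libraries and between 86.5 and 103.0 CPM in controls. Neutrophil precursor markers summed to 5.78, 6.84 and 3.56 CPM in Ogt-KD libraries and 2.37, 5.72 and 5.63 CPM in controls, with 4 of 5 tested above 0. Mature neutrophil markers summed to 123.3, 295.9 and 160.0 CPM in Ogt-KD libraries and 124.5, 107.4 and 215.4 CPM in controls, with 6 of 6 above 0. Plasma cell markers summed to 291.7, 206.4 and 330.2 CPM in Ogt-KD libraries and 147.3, 343.2 and 336.4 CPM in controls, with 3 of 5 tested above 0. Control replicate 1, the lowest library for 42 of the mitosis genes, also had the lowest sum of several marker lists. These were plasma cell, neutrophil precursor, B cell, germinal centre B cell, and megakaryocyte and platelet markers. It was not the lowest for erythroid, dendritic cell, mature neutrophil, macrophage, CD8 T and NK cell or T cell markers. The part of these cell types in the result was not tested. The 8 T cell markers summed to 3893, 3603 and 3526 CPM in Ogt-KD libraries and 4109, 3833 and 3702 CPM in controls, and Cd4 stood at 902.7, 872.2 and 738.5 CPM in Ogt-KD libraries and 847.0, 856.2 and 762.3 CPM in controls.

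A further 110 mitosis genes outside the list were chosen by function, with earlier results of these data known. They were read in the same libraries and are not an independent repeat. Of their log2 fold changes 91 lay above 0 and 19 below, where 49.0% of all genes tested lay above 0. Their median was 0.48. None passed an adjusted p of 0.05 by edgeR, and 54 lay higher and 0 lower at an unadjusted p under 0.05, where 5.04% of all genes lay higher and 2.48% lower. Among 22 genes of mitotic entry, exit and transcription 20 lay above 0. The smallest p values there were those of Cdc25c, the phosphatase that activates Cdk1 (log2 fold change 1.27, SE 0.23, adjusted p = 0.48), and Psrc1 (0.89). Of 38 further centromere, kinetochore and checkpoint genes 34 lay above 0, with the smallest p values for the microtubule-binding kinetochore gene Ska1 (1.13, SE 0.23) and for Cenpi (0.91, SE 0.19). Of 27 further spindle, motor and centrosome genes 23 lay above 0, with the smallest p values for the kinesin gene Kif14 (1.06) and for Stmn1 (0.54), a tubulin-binding protein. Of 7 cytokinesis genes 4 lay above 0, with the smallest p values for Shcbp1 (0.80) and Arhgap11a (0.61), and all 4 further condensin genes lay above 0, with the smallest p values for Ncapg2 (0.47) and Ncapd2 (0.61). The 12 cohesion genes were evenly split, 6 above and 6 below 0 with a median of 0.05, and the smallest p values were those of Esco2 (1.03, SE 0.29), the acetyltransferase that locks cohesin in S phase, and Sgo2a (0.87, SE 0.27), a protector of centromeric cohesion.

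Genes of DNA replication, the step before mitosis, had a smaller difference. Of 45 tested genes 43 lay above 0, where 49.0% of all genes tested did. Their median difference was 0.35 on the log2 scale. By edgeR 13 lay higher and 0 lower at an unadjusted p under 0.05, where 5.04% of all genes lay higher and 2.48% lower. The smallest p values belonged to Rpa2 (0.36, SE 0.10), a single-strand binding subunit, and Cdc45 (0.82, SE 0.25), a helicase component, and neither passed over all genes (adjusted p = 0.526 and 0.556). Their library scores were 0.32, 0.32 and -0.10 in Ogt-KD libraries and -0.39, -0.09 and -0.06 in controls, against 0.55, 0.49 and 0.06 in Ogt-KD libraries and -0.73, -0.20 and -0.17 in controls for the mitosis genes. The order of libraries was thus alike in the first places, with Ogt-KD replicates 1 and 2 highest and control replicate 1 lowest, while Ogt-KD replicate 3 lay below control replicates 2 and 3 in the replication list. The difference in size between the lists was not tested.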

How the data were processed

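RNA of splenic CD4+ T cells was sequenced as 3 Ogt-KD and 3 control libraries, made with TruSeq per the labels' protocols. Tools named in the submitters' processing notes are TopHat2 2.0.9 and Bowtie2 2.0.6, with the build mm9. The sources used here do not state the counting tool or its strand setting. Coordinates in the deposited table are those of GRCm38, with 44 of the 46 members identical to GENCODE M21. The authors deposited integer read counts per gene, which entered every test, and FPKM, which were used for levels per length. The authors' deposited log2 fold change, p-value and adjusted p of Ogt-KD over control were read for comparison, and their mean normalised signal per group and the other deposited column, gene length in bases, were not used in a test.

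Counts were tested with the edgeR 4.0.16 quasi-likelihood F test (R 4.3.3, TMM, filterByExpr, robust dispersion, group as the only term) on the whole table, with Benjamini-Hochberg adjustment over 16075 genes and a threshold of 0.05. The test was checked on simulated data with known changes. Each simulated count was drawn independently, so the check does not cover deviations that many genes share within a library. DESeq2 1.42.0, limma 3.58.1 (voom), other scalings, no filter, a replicate block and left-out libraries were the alternatives. The members, roles and other gene lists were chosen with earlier results of these data known, so no set test was made. Members named library by library were set by a list, with the largest and smallest difference in each role, and other lists name the genes with the smallest p; further members given by library, the named cohesin ring and transport kinesin genes and the 40 base span were chosen after values were seen. Scores used a pseudocount of 0.5 CPM.

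The labels state no pairing. Deviations from the group mean of Ogt-KD and control libraries with the same number correlated across genes at 0.109, 0.346 and 0.523, so the block was run. Unlike pairs reached 0.267 for Ogt-KD replicate 1 with control replicate 2. No pair of libraries was a copy (chi-squared per degree of freedom from 10.8 to 96.2). Nothing states whether libraries came from separate cultures or cages, so p-values measure the spread between these samples. Exons of 13 members overlap another gene, 11 of them on the opposite strand, and reads there could be counted for either: Ccna2, Plk1, Cdc20, Ube2c, Kif20a, Kif4, Nusap1, Cdca8, Prc1, Ckap2l and Ncapg, with Top2a and Foxm1 on the same strand. Promoters are RefSeq sequences on GRCm38.p6, searched over 250 bases before the start.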

Additional observations from a re-analysis of the deposited data

How the results depend on the processing

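The 46 members lay above 0 under every alternative run, with a median log2 fold change of 0.77 to 0.80 under other scalings, no filter, DESeq2, limma-voom and the replicate block, 0.60 to 0.91 when 1 library was left out, and 1.07 without both replicate 3 libraries. The count of members called was 0 except with DESeq2, which called 5. Members at an unadjusted p under 0.05 numbered 22 to 44 over the left-out libraries, where 2.64% to 9.59% of all genes lay higher. Both the 44 members and the 9.59% came without Ogt-KD replicate 3. Over all genes, edgeR called 1 gene; the count was 111 with DESeq2, 4 without a filter, 47 with the replicate block, 35 without both replicate 3 libraries and 1 to 2 over the left-out libraries. The block changed no call of a member. Of 598 values of single members under alternatives, 593 kept their direction and side of the threshold and 5, all with DESeq2, passed it. The cause of these differences was not tested. Member adjusted p values in the main fit were 0.48 or higher, so keeping the side of the threshold says little about stability. With 3 libraries a group, an exact permutation test of 1 gene could not go below p = 0.1.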

Other observations

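Genes that hold T cells out of the cycle or set its first steps showed no common direction as 1 list. The list mixes brakes with D-type cyclins and the kinases Cdk4 and Cdk6, so a mixed sign does not describe the brakes alone. Of 23 tested genes of cell cycle brakes, quiescence and D-type cyclins, 11 lay above and 12 below 0, with a median log2 fold change of -0.0, 0 passed an adjusted p of 0.05 by edgeR, and 4 lay higher and 3 lower at an unadjusted p under 0.05, where 5.04% of all genes lay higher and 2.48% lower. Cdkn2c, which encodes the inhibitor p18 of the kinases Cdk4 and Cdk6, stood at 0.84 on the log2 scale (SE 0.14, adjusted p = 0.48 by edgeR). Klf2, a transcription factor of quiescence, stood at -0.49 (SE 0.10, adjusted p = 0.483 by edgeR). The other genes lower at that unadjusted p were Btg1 (-0.3) and Tob1 (-0.28). Those also higher were Cdkn1a (0.87), Cdk6 (0.38) and Rbl2 (0.27). The 12 cohesion genes ranged widely on the log2 scale. Among ring subunits and the release factor Wapl, Smc3 stood at -0.0, Smc1a at -0.07, Rad21 at 0.09, Stag1 at -0.07, Stag2 at -0.21 and Wapl at -0.10. The separase gene Espl1 had 0.96 (SE 0.38) and the sororin gene Cdca5 0.82 (SE 0.29). The others were Esco2 at 1.03, Sgo2a at 0.87, Sgo1 at 0.44 and Pttg1 at -0.03. This grouping of the cohesion genes was made after their values were seen, and no test compared the groups. The kinesins of organelle transport, also picked out after their values were seen, had -0.06 for Kif3a, -0.01 for Kif3b and -0.17 for Kif5b.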
